A study of Mus musculus with 10 samples.

Results

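The nuclear genes for respiratory complexes II, III, IV and V and for cytochrome c were followed in mRNA bound to ribosomes of mouse hippocampal CA3 neurons after early life stress (ELS), acute swim stress (AS) or both. Members were the genes whose symbols begin with Uqcr, Cox4 to Cox8 or Atp5 or are Sdha, Sdhb, Sdhc, Sdhd, Cyc1 or Cycs, without pseudogene symbols and with a mean value of at least 3 over the groups. The pattern matched 48 of the 20171 genes used, and none of these fell under the minimum, so that all 48 are described. They comprise 4 genes of complex II, 9 of complex III, 1 for cytochrome c, 17 of complex IV and 17 of complex V. The members with the lowest means were Cox7b2, at 3.13, and Cox4i2, at 3.21.

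Complexes II to IV pass electrons from succinate and from reduced ubiquinone to oxygen, with cytochrome c as the carrier between complexes III and IV. Complexes III and IV pump protons across the inner mitochondrial membrane, and complex V, the ATP synthase, uses the return of protons to make ATP. Neurons draw most of their ATP from this pathway. The subunits are of unlike kinds: large catalytic or core proteins, and small proteins that surround and stabilize them. The central subunits of complexes III to V that mitochondrial DNA encodes were not analysed here, as none of the symbols searched for them was among the deposited genes.

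All mice were male, of the C57BL/6 strain and 70 to 90 days old. The sample records give their genotype as Wild Type, while the study's methods describe littermates that carry the Gprin3-BacTRAP transgene, in which Gprin3 regulatory sequence drives a tagged ribosomal protein, so that translating ribosome affinity purification (TRAP) recovers mRNA from the cells that express it. Unstressed controls (Control) had full nesting material and no swim. Stressed controls (AS) were placed in 2 L of water of 25°C for a swim of 6 min and recovered for 1 h. Unstressed ELS mice (ELS) had been kept from postnatal day 2 to 12 on a wire grid with little nesting material, and stressed ELS mice (ELS+AS) had both treatments. Each library pooled RNA of 5 to 6 mice. The sample records hold 2 libraries each of Control and AS and 3 each of ELS and ELS+AS, while the methods give 3 per group.

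The deposited table gives a single value per gene and group, on the log2 scale of the regularized logarithm (rlog), which draws the values of genes with few reads together. No SD, n or test can be attached to these values, and the replicate error behind a difference is unknown. Differences are given as log2 units, and each count of members is read beside its share among all 14986 genes whose mean was 3 or more. The differences AS − Control, ELS − Control and (ELS+AS) − Control share the unstressed controls, whereas AS − Control and (ELS+AS) − ELS share no group. Unstressed controls held the lowest of the 4 values for 35.0% of all genes and the highest for 37.4%, so the control column stood apart from the other 3 more often than any of them. Among the members, Control was lowest for 38 and highest for 6.

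The labelled cell type was present, as the 7 CA3 pyramidal markers lay between 4.79 and 12.68 in every group, but markers of the other cell types were not at 0 in any group. Mbp, an oligodendrocyte marker, lay above every CA3 marker, at 13.56 in Control and 14.07 in ELS+AS. The log2 of the summed level of the CA3 markers was 13.72 in Control, 13.55 in AS, 13.52 in ELS and 13.42 in ELS+AS. By gene, 6 of 7 CA3 markers were lower than controls in AS (median −0.19). In ELS (median −0.45) and in ELS+AS (median −0.52), 7 of 7 were lower. Gprin3 itself was 7.47 in Control, 6.92 in AS, 6.70 in ELS and 6.73 in ELS+AS. The summed level of 10 microglial markers was 10.13, 10.30, 10.36 and 10.63 in the same order, that of 8 oligodendrocyte markers 15.15, 15.18, 15.29 and 15.62, and that of 9 astrocyte markers 13.88, 13.95, 13.95 and 14.22. These sums rest on a few abundant genes, and by gene 5 of 8 oligodendrocyte markers (median −0.27) and 7 of 9 astrocyte markers (median −0.07) were lower in AS than in Control. In ELS+AS, 8 of 8 and 9 of 9 were higher than in Control. All 10 microglial markers were higher in AS and 9 in ELS. Of the other lists, 3 erythroid markers summed to 9.80 in Control, 10.59 in AS, 10.61 in ELS and 10.55 in ELS+AS, with 3 of 3 higher than controls in each group, and thus had controls lowest, as most members did. The 5 dentate granule markers summed to 11.72, 11.27, 11.36 and 11.66, with 5 of 5 lower than controls in AS (median −0.52) and in ELS (median −0.41). In bulk RNA of this kind, fewer cells of a type and less RNA per cell cannot be told apart. The part of these marker differences in the results below was not tested.

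Promoters of 36 members were found in RefSeq (GRCm38.p6), each as 250 bases before and 50 bases after the start of transcription. Stretches of 120 bases upstream of the start are shown for members on which the results turn. Sdha, of the catalytic head of complex II, and Atp5b, of the catalytic head of complex V, were lower than in controls, and Uqcr11 of complex III, Cox6a1 of complex IV and Atp5e of complex V, all small subunits, were higher. The set was chosen with its motif matches known. Capitals mark the letters of NRF1 (GCGCA, then any base, then GCGC) and CCGGAAG of ETS factors such as GABP, on either strand, which are both known regulators of respiratory genes. The stretches lie at chr13:74350281-74350400 (minus strand) for Sdha, chr10:80406831-80406950 (minus) for Uqcr11, chr5:115348982-115349101 (minus) for Cox6a1, chr2:174464106-174464225 (minus) for Atp5e and chr10:128083153-128083272 (plus) for Atp5b.
Sdha: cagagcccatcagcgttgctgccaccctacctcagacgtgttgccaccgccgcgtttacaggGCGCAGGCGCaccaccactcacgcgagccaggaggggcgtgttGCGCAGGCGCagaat
Uqcr11: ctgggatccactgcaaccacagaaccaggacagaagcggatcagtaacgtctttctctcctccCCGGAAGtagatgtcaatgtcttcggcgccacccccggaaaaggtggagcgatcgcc
Cox6a1: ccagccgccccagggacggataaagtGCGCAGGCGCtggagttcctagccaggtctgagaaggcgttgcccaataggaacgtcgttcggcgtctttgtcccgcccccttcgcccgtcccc
Atp5e: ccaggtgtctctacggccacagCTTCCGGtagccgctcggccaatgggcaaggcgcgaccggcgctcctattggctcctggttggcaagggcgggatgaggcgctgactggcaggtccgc
Atp5b: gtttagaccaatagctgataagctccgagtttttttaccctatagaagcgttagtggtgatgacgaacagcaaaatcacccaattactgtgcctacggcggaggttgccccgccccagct

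The Sdha stretch held 2 NRF1 matches, the Cox6a1 stretch 1 NRF1 match, the Uqcr11 and Atp5e stretches 1 ETS match each, and the Atp5b stretch none. Over the whole window, the NRF1 letters were found in 10 of 36 members (27.8%) and in 5.19% of all 27025 genes with a promoter. Those genes were not limited to a mean of at least 3, as the members were. The ETS letters were found in 12 of 36 members (33.3%) and in 9.93% of those genes. The YY1 letters AAGATGGC were found in 3 of 36 members (8.33%), among them Atp5sl, and in 3.19% of those genes. Matches of each motif were counted whether or not they overlapped those of another. NRF1 matches stood both at genes that were higher in stressed controls, such as Cox6a1, and at genes that were lower, such as Sdha and Uqcrc1.

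Controls exposed to AS had higher values than unstressed controls for 40 of 48 members, with a median difference of 0.15 where the median over all genes was −0.01. A difference above 0 was found for 48.3% of all genes. By over 0.25 log2 units, 10 members were higher and none was lower, where 11.4% of all genes were higher and 12.3% lower by that size. Unstressed ELS mice had higher values than controls for 39 members, against 48.5% of all genes, with a median of 0.21. There, 19 members were higher by over 0.25 (11.7% of all genes) and 1, Sdha, was lower (11.9%). In stressed ELS mice against controls, 40 members were higher (49.1% of all genes), with a median of 0.12, 5 were higher by over 0.25 (11.3%) and none was lower by that size (9.47%). Within 0.1 of controls were 13 members in AS, 10 in ELS and 17 in ELS+AS, where 37.4%, 37.2% and 40.5% of all genes were. At over 0.1, 31 members were higher in AS (29.9% of all genes) and 34 in ELS (30.1%), and at over 0.5 there were 3 in each, Cox4i2, Cox6a2 and Cox6b2, against 1.56% and 1.3% of all genes.

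**Figure D1:**
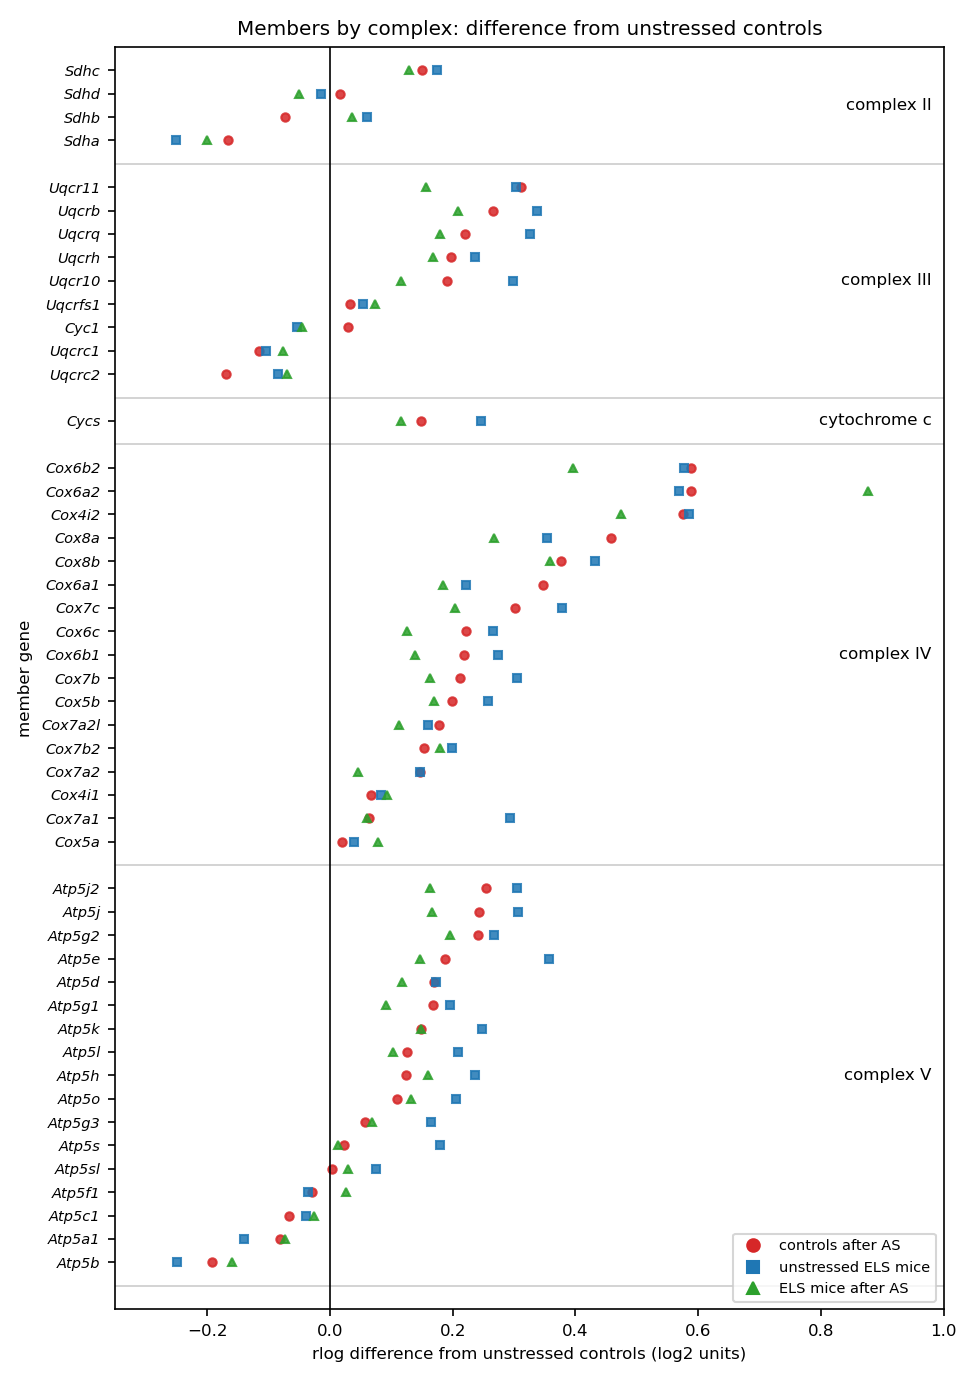
Each row is a member, ordered within its complex by the AS difference; the x axis is the rlog difference from unstressed controls in log2 units, with circles for controls after AS, squares for unstressed ELS mice and triangles for ELS mice after AS. All 17 genes of complex IV lie to the right of 0 in each group, while Sdha and Atp5b lie furthest to the left.

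The complexes differed in their medians. After AS in controls the median was −0.03 for complex II, 0.19 for complex III, 0.15 for Cycs, 0.22 for complex IV and 0.12 for complex V, and the value for complex II was 0.01 (0.0095) once each group was centred on its median over all genes. In unstressed ELS mice against controls the medians were 0.02, 0.24, 0.25, 0.27 and 0.20 in the same order, with complex II at 0.055 after centring. Complex IV had 17 of 17 members higher in both comparisons, complex V 13 of 17, complex III 7 of 9 after AS and 6 of 9 in ELS mice, and complex II 2 of 4 in each.

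Within complex II, succinate dehydrogenase, the members did not move as 1 group. Sdha, the flavoprotein that oxidizes succinate (chr13:74322254-74350280), was 13.47 in Control, 13.30 in AS, 13.22 in ELS and 13.27 in ELS+AS. The unstressed controls were thus highest, and the other groups lay 0.17 to 0.25 below them. Sdhc, a membrane anchor that helps to bind ubiquinone, was 11.73, 11.88, 11.91 and 11.86 in the same order, with controls lowest. Sdhb, the iron-sulfur subunit, was 12.55, 12.48, 12.61 and 12.59, and Sdhd, the other anchor, 11.95, 11.97, 11.94 and 11.91. All differences of Sdhb and Sdhd from controls were within 0.1 log2 units.

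Complex III, the cytochrome bc1 complex, split by the kind of subunit, which went with coding length. The small subunits had 168 to 333 nt and the core and redox subunits 822 to 1440 nt, so kind and length cannot be told apart. The 5 small subunits, Uqcr10, Uqcr11, Uqcrb, Uqcrh and Uqcrq, were higher than controls in each of the other groups, by 0.19 to 0.31 in AS, 0.24 to 0.34 in ELS and 0.12 to 0.21 in ELS+AS. Uqcr11 (chr10:80402997-80406830) was 11.60 in Control, 11.91 in AS, 11.90 in ELS and 11.75 in ELS+AS. Uqcrb, which contacts the ubiquinone-binding region, was 11.42, 11.68, 11.75 and 11.62. Uqcrq, which binds beside cytochrome b, was 11.68, 11.90, 12.01 and 11.86. In Uqcrb and Uqcrq, as in Uqcr10 and Uqcrh, unstressed ELS mice had the highest value. Uqcr10 was 11.54, 11.73, 11.84 and 11.66, and Uqcrh, the hinge protein that assists the transfer of electrons to cytochrome c, was 12.00, 12.20, 12.24 and 12.17. The core proteins Uqcrc1 and Uqcrc2, the largest subunits of the complex, lay the other way. Uqcrc2 (chr7:120635176-120659524) was 13.06 in Control, 12.90 in AS, 12.98 in ELS and 12.99 in ELS+AS, and Uqcrc1 was 12.96, 12.85, 12.86 and 12.89. The redox subunits Cyc1, which is cytochrome c1, and Uqcrfs1, the Rieske iron-sulfur protein, were within 0.1 of controls in all 3 groups. Cyc1 was 12.57, 12.60, 12.51 and 12.52, and Uqcrfs1 was 12.31, 12.34, 12.36 and 12.39. Cycs, the mobile carrier, was 13.21 in Control, 13.36 in AS, 13.46 in ELS and 13.33 in ELS+AS, with controls lowest and unstressed ELS mice highest.

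**Figure D2:**
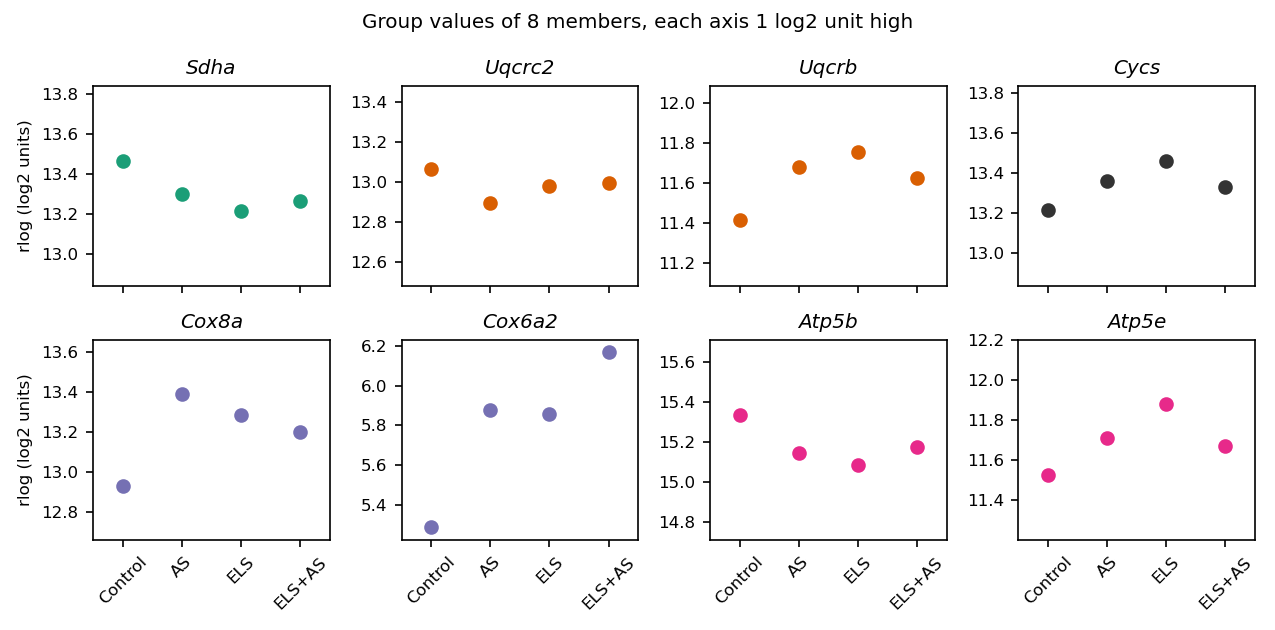
The rlog value in log2 units (y axis, each panel 1 unit high) in the 4 groups (x axis) for 8 members of complexes II to V and cytochrome c; a point is the single deposited value of a group, without an error. Sdha, Uqcrc2 and Atp5b are highest in Control, Uqcrb, Cycs, Cox8a, Cox6a2 and Atp5e are lowest there, and Cox6a2 is highest in ELS+AS.

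In complex IV, cytochrome c oxidase, nuclear genes supply the subunits around a catalytic core encoded in mitochondrial DNA. The 11 ubiquitous subunits had a median difference of 0.21 in AS, 0.26 in ELS and 0.14 in ELS+AS. Cox8a, a small subunit of a single membrane helix (chr19:7215153-7217616), was 12.93 in Control, 13.39 in AS, 13.28 in ELS and 13.20 in ELS+AS, or 1.37-fold higher in AS than in Control. Cox7c, also small, was 11.76, 12.06, 12.14 and 11.96. Cox6a1 (chr5:115345642-115348981) was 12.44, 12.78, 12.66 and 12.62, and was thus highest after AS in controls, as was Cox8a. Cox6b1, which faces the intermembrane space, was 12.63, 12.85, 12.90 and 12.77, Cox5b, a zinc-binding subunit, was 12.53, 12.73, 12.79 and 12.70, and Cox6c was 12.47, 12.70, 12.74 and 12.60. The highest of the 4 values was that of unstressed ELS mice in these 3 genes and in Cox7b, at 12.14, 12.35, 12.44 and 12.30. Cox7a2 was 11.81, 11.96, 11.96 and 11.85, and Cox7a2l was 11.95, 12.13, 12.11 and 12.06, so that AS and ELS lay together in both. Cox4i1 and Cox5a, the longest ubiquitous subunits in coding length, differed least from controls in AS and ELS, by 0.02 to 0.08. Cox4i1 was 13.29, 13.35, 13.37 and 13.38, and Cox5a was 12.66, 12.68, 12.69 and 12.74.

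Of 6 isoforms that are better known from muscle, testis or lung, all were measured at low values and all were higher than in controls in each group. Cox6a2, the muscle isoform of Cox6a1, which mouse parvalbumin interneurons also express (chr7:128205435-128206387), was 5.29 in Control, 5.88 in AS, 5.86 in ELS and 6.17 in ELS+AS. It was the sole member that was higher by over 0.25 in stressed than in unstressed ELS mice, by 0.31, where 5.11% of all genes were, and no member was higher by over 0.5 (0.634%). Beside it, the log2 of the summed level of 6 inhibitory neuron markers was 13.42 in Control, 13.42 in AS, 13.44 in ELS and 13.75 in ELS+AS, with 6 of 6 markers higher in ELS+AS than in ELS and none at 0. Pvalb, the parvalbumin gene, was 9.19, 9.84, 9.79 and 9.98. Its differences from controls, 0.65 in AS and 0.60 in ELS, were the highest of the 6 markers. Of the 6, 2 were lower than controls in each of those groups, with Slc32a1 lowest at −0.19 and −0.28. In stressed against unstressed ELS mice, Pvalb rose least of the 6, by 0.19. The part of inhibitory neurons in the Cox6a2 difference was not tested. Cox6b2, a testis isoform, was 4.63, 5.22, 5.21 and 5.03, and Cox4i2, a lung isoform, was 2.80, 3.38, 3.38 and 3.27. Cox7a1, a muscle isoform, was 5.34, 5.40, 5.63 and 5.40 and so stood out in unstressed ELS mice. Cox8b was 3.09, 3.46, 3.52 and 3.45, and Cox7b2 was 2.99, 3.15, 3.19 and 3.17.

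Levels of paralogues were compared per kilobase of the longest transcript, as means of the 4 groups of the rlog value less the log2 of the length. Cox6a1 stood at 13.32 and Cox6a2 at 6.35, Cox4i1 at 13.73 and Cox4i2 at 3.66, Cox6b1 at 13.48 and Cox6b2 at 5.80, Cox7a2 at 12.50 and Cox7a1 at 6.49, and Cox8a at 14.06 and Cox8b at 4.85. In each of these 5 pairs the ubiquitous form had the higher level. The 3 genes for the c ring of complex V, which encode the same mature protein, stood nearer to each other, with Atp5g3 at 13.75, Atp5g2 at 12.34 and Atp5g1 at 10.49, of which the last has the least certain value since its longest annotated transcript is 4715 nt. Reads of such near-identical genes, and of processed pseudogenes, may have been divided among copies, which leaves single values of Cox and Atp5 genes uncertain.

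Complex V, the ATP synthase, separated in part by role, again together with coding length. Its alpha, beta and gamma genes had the longest coding sequences of the complex, at 894 to 1659 nt, so role and length cannot be told apart. The genes of its catalytic head, Atp5a1 (alpha) and Atp5b (beta), and Atp5c1 (gamma) of the central stalk were lower than controls in all 3 groups. Atp5b (chr10:128083273-128090391) was 15.33 in Control, 15.14 in AS, 15.08 in ELS and 15.17 in ELS+AS, the highest values of any member. Atp5a1 was 14.87, 14.79, 14.73 and 14.79, and Atp5c1 was 13.09, 13.03, 13.06 and 13.07. The other central stalk subunits, delta and epsilon, lay above controls, so the central stalk did not move as a whole. Atp5e, the epsilon subunit and the smallest of the members in coding length at 156 nt (chr2:174461072-174464105), was 11.52 in Control, 11.71 in AS, 11.88 in ELS and 11.67 in ELS+AS, and Atp5d was 13.00, 13.17, 13.18 and 13.12.

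The membrane part of the synthase followed the small subunits. The c ring genes had differences of 0.06 to 0.24 in AS and 0.16 to 0.27 in ELS, of which Atp5g2 was the highest, at 11.76 in Control, 12.00 in AS, 12.02 in ELS and 11.95 in ELS+AS. Atp5g1 was 12.61, 12.78, 12.80 and 12.70, and Atp5g3 was 13.46, 13.52, 13.63 and 13.53. The 3 membrane accessory subunits Atp5j2, Atp5k and Atp5l were higher by 0.13 to 0.25 in AS and by 0.21 to 0.30 in ELS. Atp5j2 was 11.65, 11.91, 11.96 and 11.82, Atp5k 11.68, 11.83, 11.92 and 11.83, and Atp5l 12.35, 12.47, 12.56 and 12.45, each with controls lowest and unstressed ELS mice highest. Of the peripheral stalk, which holds the head in place, Atp5j was 12.31, 12.55, 12.61 and 12.47, Atp5h and Atp5o were higher by 0.12 and 0.11 in AS and by 0.24 and 0.21 in ELS, and Atp5f1, the longest of them, was within 0.1 of controls in each group. Atp5s and Atp5sl, which carry the prefix without being subunits of the enzyme, were within 0.1 of controls after AS, and in ELS mice were higher by 0.18 and 0.08.

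AS in ELS mice was set against unstressed ELS mice. Only 12 of 48 members were higher, where 50.8% of all genes were, and the median difference was −0.07. Most of these differences were small: 28 members were within 0.1 log2 units (64.4% of all genes), and none was lower by over 0.25 (1.96%). The lowest were Cox7a1, at −0.23, Atp5e, at −0.21, Uqcr10, at −0.18, Cox6b2, at −0.18, and Cox7c, at −0.17. The alpha, beta and gamma subunits of complex V were higher instead, by 0.09 for Atp5b, 0.07 for Atp5a1 and 0.01 for Atp5c1. By complex, 1 of 4 genes of complex II, 4 of 9 of complex III, 3 of 17 of complex IV and 4 of 17 of complex V were higher.

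In 35 of 48 members the value was higher after AS in controls and lower after AS in ELS mice, a combination found in 29.4% of all genes, and these differences share no group. The AS difference in ELS mice less that in controls had a median of −0.25, and was below −0.25 for 23 members against 16.2% of all genes. Cox6b2, at −0.77, Cox4i2, at −0.69, and Cox8a, at −0.54, were lowest, and Atp5b, at 0.28, was highest. The contrast was not particular to the members. Complex I subunits had a median of −0.22, with 18 of 36 below −0.25. Cytoplasmic ribosomal proteins had a median of −0.35, with 60 of 76 below −0.25. All genes with a coding length under 600 nt had medians of 0.17 for AS − Control and −0.07 for (ELS+AS) − ELS. This contrast between the AS differences was not tested, as no values per library were at hand. Unstressed ELS mice had the highest of the 4 values for 29 members and for 21.3% of all genes. Stressed ELS mice differed little from stressed controls, with 40 members within 0.1 (59.2% of all genes), a median of −0.03 and 16 members higher (49% of all genes). By over 0.25, 1 member, Cox6a2, was higher (6.89% of all genes) and none was lower (2.6%).

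**Figure D3:**
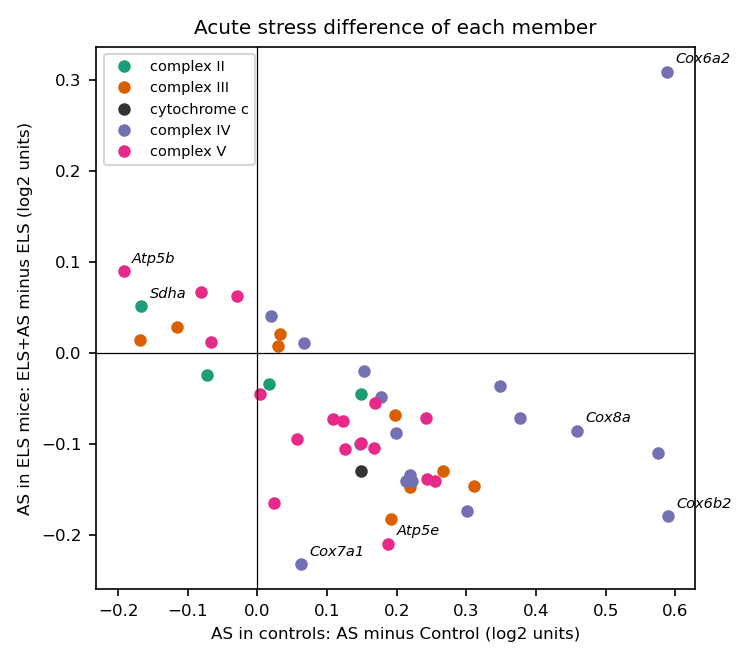
Each point is a member, coloured by complex; the x axis is the AS difference in controls (AS − Control) and the y axis the AS difference in ELS mice ((ELS+AS) − ELS), both in log2 units. Of 48 members 35 lie below 0 on the y axis and above 0 on the x axis, Cox6a2 is alone far above 0 on both axes, and Atp5b and Sdha lie below 0 on the x axis and above 0 on the y axis.

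The order of the members followed the length of their coding sequence, which the choice of members did not use. The 35 members with a coding length under 600 nt, a limit chosen after the values were seen, were higher than controls in 35 cases after AS and in 34 cases in ELS mice, with medians of 0.20 and 0.27. The 13 members of 600 nt or more were higher in 5 cases in each, with medians of −0.07 and −0.04. In stressed against unstressed ELS mice, 3 of the 35 short and 9 of the 13 long members were higher. Across the 48 members, Spearman's rank correlation of coding length with the difference was −0.724 for AS − Control, −0.777 for ELS − Control and 0.698 for (ELS+AS) − ELS, given as a description since genes of the same libraries are not independent replicates.

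The same relation was present across all genes. Of 1696 genes with a coding length under 600 nt, 84.0% had higher values in AS than in Control and 88.9% in ELS than in Control, with medians of 0.17 and 0.21, and 23.1% were higher in stressed than in unstressed ELS mice. Of 12460 longer genes, 41.6%, 41.1% and 56.3% were higher. The members are short, with a median coding length of 394.5 nt against 1425 nt over all genes, and the complexes ranged from 267 nt for complex IV, 333 nt for complex III and 483 nt for complex V to 676.5 nt for complex II, so that the complex with the highest medians was the shortest and that with medians near 0 the longest.

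When the median difference of genes of like coding length was subtracted, the median of the members was −0.03 (−0.029) for AS − Control, −0.0034 for ELS − Control and −0.0090 for (ELS+AS) − ELS, and 17, 23 and 22 of 48 members were above 0. By this measure 31, 37 and 43 members were within 0.1, and the median changed sign in complexes III and V and in Cycs for both comparisons with controls. The median of complex II, with 4 genes, remained the lowest of the complexes, at −0.11 in AS − Control and −0.075 in ELS − Control. When transcript length was used instead, Cycs kept its sign, at 0.14 and 0.23, as its transcript of 3123 nt is long for its coding length of 315 nt. By transcript length, 24, 24 and 35 members were within 0.1 in the same order of comparisons, and abundant subunits also lay apart. In AS − Control, Atp5g1 was at 0.25, Cox6c at 0.23, Atp5b at −0.24 and Sdhb at −0.24. With coding length these genes were at −0.028, −0.027, −0.15 and −0.12 in the same order. The longest transcripts of Atp5g1 and Cox6c, of 4715 and 3038 nt, are long for coding lengths of 408 and 228 nt. By coding length, the members furthest above genes of their length in AS and ELS were low-valued isoforms. Cox4i2 was 0.45 above them in AS and 0.42 in ELS, Cox6b2 0.37 and 0.32, and Cox6a2 0.34 and 0.28, with 0.41 for Cox6a2 in stressed against unstressed ELS mice. The isoforms did not all lie above: Cox7a1 was at −0.18 in AS and 0.0079 in ELS, and Cox7b2 at −0.095 and −0.087. Cox8a, an abundant subunit, was 0.21 above in AS and 0.07 in ELS. Among the other members, those below genes of their length included Cox5a, at −0.18 in both, Sdhd, at −0.12 and −0.19, and Atp5b, at −0.15 and −0.20.

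**Figure D4:**
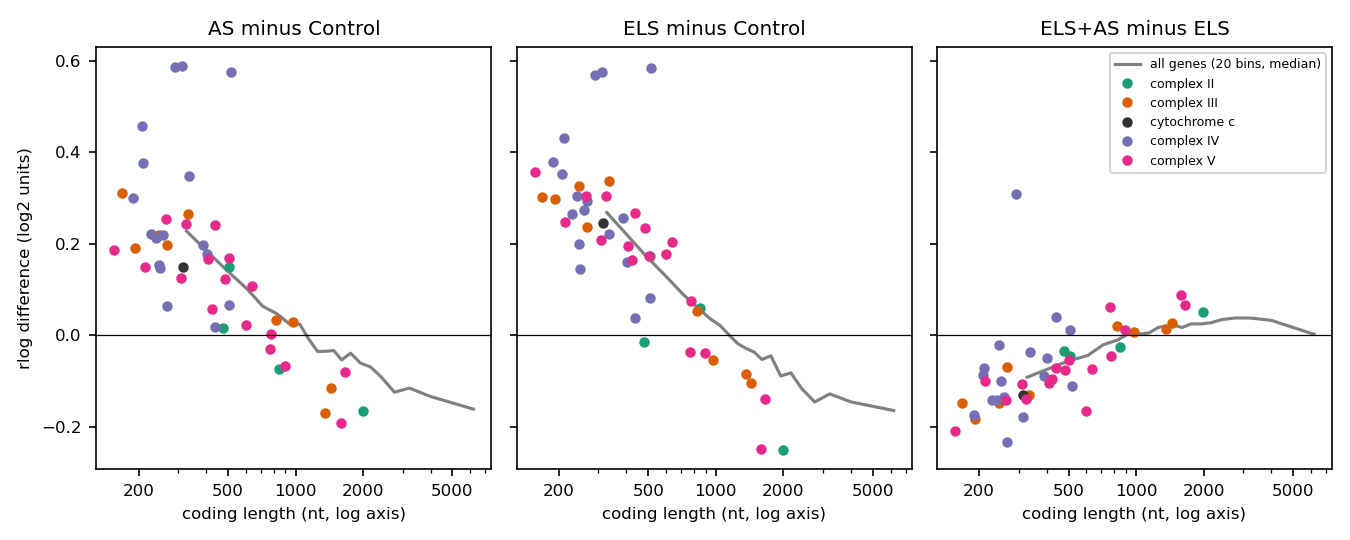
The rlog difference in log2 units (y axis) against the coding length in nt (x axis, log scale) for each member, coloured by complex, in 3 comparisons; the grey line joins the medians of all genes in 20 bins of coding length. Most members lie along the line, with Cox4i2, Cox6a2 and Cox6b2 above it at left and centre and Cox6a2 above it at right.

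Other genes of the pathway were read from lists of assembly factors, related enzymes and ribosomal proteins. Of 20 assembly factors of complex IV, 16 were higher in AS than in Control and 16 in ELS than in Control, with medians of 0.16 and 0.23. Their coding lengths ran from 171 to 1329 nt. Of all genes under 600 nt, 84.0% were higher in AS and 88.9% in ELS, with medians of 0.17 and 0.21. Cox20, which stabilizes a core subunit, was higher by 0.41 and 0.54, and Cox17, a copper chaperone, by 0.38 and 0.45, whereas Taco1, an activator of the translation of a mitochondrially encoded subunit, was lower, at −0.55 and −0.67. All 4 factors of complex II were higher in both, with medians of 0.10 and 0.20, and of 6 factors of complex III 3 were higher in each. Among 5 genes for assembly and inhibition of complex V, Atpif1, the inhibitor of its reverse action, was 0.17 higher in both, and the assembly factor Atpaf1 was lower, at −0.28 and −0.22. Subunits outside the symbol pattern included Usmg5, of the synthase, at 0.24 and 0.35, and Ndufa4, now assigned to complex IV, at −0.0046 and 0.09.

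Enzymes upstream of the chain are encoded by longer genes, with coding lengths of 762 to 3102 nt in the lists of the citric acid cycle and glycolysis, and their medians are to be read beside the −0.04 of all genes of 600 nt or more in both AS and ELS. Of those longer genes 41.6% and 41.1% were higher. Of 14 genes of the citric acid cycle, 3 had higher values in AS and 3 in ELS than in Control, with medians of −0.03 and −0.06, and 13 were higher in stressed than in unstressed ELS mice. Of 15 genes of glycolysis, 2 were higher in each comparison with controls, with medians of −0.09 and −0.12. The 10 regulators of mitochondrial biogenesis had a median of −0.13 after AS, with 2 higher, and of 0.0026 in ELS, with 5 higher; the lowest was Ppargc1b, a coactivator of respiratory genes, at −0.80 in AS and −0.39 in ELS. Complex I had 30 of 36 subunits higher in AS and 32 in ELS, with medians of 0.12 and 0.17, and the cytoplasmic ribosomal proteins, also short, 75 and 76 of 76, with medians of 0.31 and 0.34. The median of complex IV thus lay above that of complex I and below that of the ribosomal proteins, differences to which no test applies. Among all genes with a coding length under 600 nt, 84.0% were higher in AS and 88.9% in ELS, with medians of 0.17 and 0.21.

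**Figure D5:**
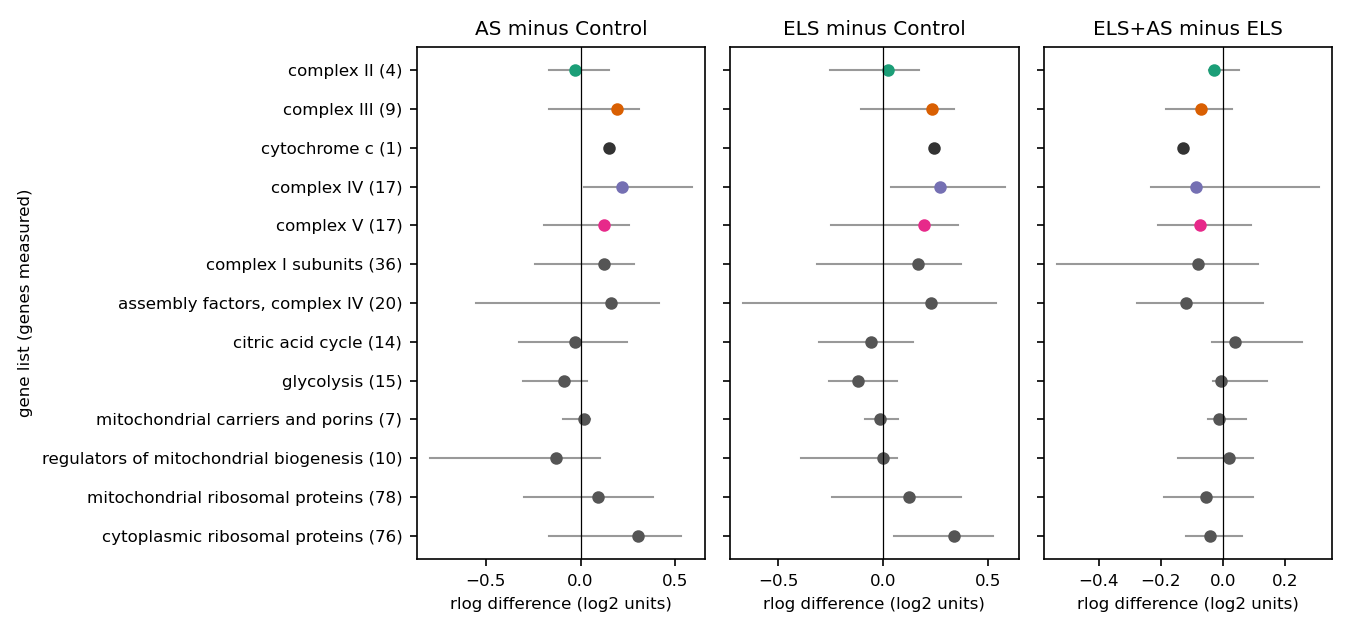
The median rlog difference in log2 units (x axis, a separate scale in each panel) of each gene list, with the number of genes in brackets, in 3 comparisons; grey lines span the lowest to the highest gene of a list. Complexes III, IV and V, complex I and both sets of ribosomal proteins have medians above 0 in the first and second panels, and the citric acid cycle and glycolysis have medians below 0 there.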

How the data were processed

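TRAP RNA was sequenced by the authors as 10 libraries in the sample records, grouped by their labels. They trimmed and filtered reads, aligned them to mm10 with Rsubread, quantified transcripts with Salmon and obtained gene counts with tximport. The authors deposited values on the log2 scale, made with the rlog of DESeq2, in which size factors scale the counts and genes with few reads are shrunk towards their mean. The table has 1 column for each of 4 groups. How libraries were combined, whether the limma batch correction named for heatmaps was applied, and tool versions are not given in the sources used here. The depth of each library is unknown from the table, so counting precision cannot be given.

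Of 20196 symbols, 25 that had become dates were left out. Differences of group values were computed for 5 comparisons and for the AS difference in ELS mice less that in controls; genes with a mean of at least 3 served as background, and over 0.25 was the size for counts. No test was possible. The members, lists and rules were chosen with earlier results of these data known. Every member could be named, with group values for the 2 furthest above and below 0 in each complex and comparison and for paralogues, and of each list the 2 highest and 2 lowest genes; Ndufa4, Usmg5 and Atpif1 were named as subunits or inhibitor, and Pvalb after its values were seen. Transcript and coding lengths and positions came from GENCODE M21 (GRCm38), with a coding length for 14156 genes, and length trends were removed in 50 bins. Alternatives were other filters, sizes and memberships, centring, means and length trends. Scripts were tested on simulated data. Python 3.11.15, numpy 2.4.6, pandas 2.3.3, scipy 1.17.1 and matplotlib 3.10.9 were used.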

Additional observations from a re-analysis of the deposited data

How the results depend on the processing

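The medians over all members kept their direction with no filter on the mean, with a mean of at least 6, with the mean in place of the median and without the tissue-restricted isoforms, Atp5s and Atp5sl. Centring each group on its median moved (ELS+AS) − AS to −0.062 and turned complex II after AS to 0.0095, and moved complex II from 0.023 to 0.055 in ELS − Control and from −0.030 to −0.055 in (ELS+AS) − ELS. With the transcript length trend removed, the member medians were −0.011 for AS − Control, 0.0032 for ELS − Control, −0.0063 for (ELS+AS) − Control, −0.022 for (ELS+AS) − ELS and −0.0051 for (ELS+AS) − AS. With the coding length trend removed, an alternative chosen after seeing the data, they were −0.029, −0.0034, −0.015, −0.0090 and 0.011. By construction these alternatives subtract what genes of like length share; the cause of the trend was not tested. With the trends in transcript and coding length removed, complex II moved from −0.028 to −0.16 and −0.11 in AS − Control. It turned to −0.15 and −0.075 in ELS − Control and to 0.024 and 0.019 in (ELS+AS) − ELS. Complex III turned to −0.034 and −0.029 in AS − Control and to −0.00018 and −0.0026 in ELS − Control. Complex V turned to −0.075 and −0.059 in AS − Control and to −0.0010 and −0.0043 in ELS − Control. With the coding length trend removed, Cycs turned to −0.067 in AS − Control and −0.012 in ELS − Control, although it stayed at 0.14 and 0.23 with the transcript length trend removed, and complex IV to −0.018 in AS − Control and 0.0058 in (ELS+AS) − ELS.

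The 10 members higher by over 0.25 after AS in controls became 6 with a mean of at least 6 or without the restricted isoforms, 4 and 3 with the transcript and coding length trends removed, 31 at a size of 0.1 and 3 at 0.5. In ELS − Control the 19 became 7 and 3 with the length trends removed, 34 at 0.1 and 3 at 0.5. In (ELS+AS) − ELS the 1 member, Cox6a2, became 0 with a mean of at least 6, without the restricted isoforms and at 0.5. No paired analysis was possible because the columns hold groups and not libraries, and for the same reason no library could be left out. Without values per library, neither the spread nor the depth behind a difference is known, and low-valued isoforms are drawn together by the rlog.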
